A study of Cavia porcellus with 24 samples.

Results

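The comparison concerns 6 of the 24 guinea pigs of the series, the F2 animals kept on control chow, and asks whether food restriction of the F0 grandmothers was accompanied by a different endothelial transcriptome in their grandoffspring. The 3 PC-C-C animals (numbers 52, 54 and 55) descend from F0 dams fed 100% of the ad libitum ration. The 3 PR-C-C animals (numbers 41, 47 and 58) descend from F0 dams fed 70% of that ration for 3 weeks before mating and until 34 days of gestation, and 90% afterwards until lactation ended. The members were chosen by their sample labels, which give generation, F0 ration and diet. All 6 are Hartley guinea pigs of an outbred stock, 2 males and 1 female in each group. Their F1 mothers were fed control chow ad libitum and mated to unrelated males, and the 6 animals themselves were on ad libitum control chow throughout. RNA was flushed with TRIzol from a carotid artery rinsed of blood when the animals were 20 weeks old and had spent 12 weeks on the assigned diet. The study lists fewer F1 dams in the PC arm than there are PC-C-C animals, so some of these share a dam. The labels do not give litters. The p-values of the models measure the spread between animals within groups, estimated over all 8 groups and not these 6 animals alone.

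The endothelium is the single layer of cells that lines an artery. It controls the entry of leukocytes and lipoproteins into the wall, relaxes the muscle beneath it and holds blood in a fluid state. Poor nutrition in early life is known to alter vascular function in adulthood. The germ cells from which F2 animals arise form while the F1 mother is itself a fetus, so that a restricted F0 dam carries the beginnings of both generations. Values are normalized counts, that is reads per gene divided by 1 size factor per library. Fold changes are PR-C-C over PC-C-C on the log2(normalized count + 1) scale, which understates the change of low genes. Genes are listed by Ensembl identifier, and 146 of 18149 could be paired with a name. No member of the 10 lists of cell type markers (76 genes, endothelial, muscle, fibroblast and blood cell markers among them) was among these, so the labelled cell type could not be checked against its markers. In bulk RNA, fewer cells of a type and less RNA per cell cannot be told apart.

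Before any comparison of the groups, 1 library stood apart. In PC-C-C animal 52, 317 genes of 13224 tested were at least 4-fold above, and 50 at least 4-fold below, every one of the other 5 libraries (a difference of 2 on the log2(normalized count + 1) scale). In each of the other 5 libraries between 0 and 6 genes were that far above and between 11 and 42 that far below. The Pearson correlation of log2 values across genes was 0.911 to 0.925 between animal 52 and the other 5, and 0.96 to 0.976 among those 5, where genes are not independent replicates. The separation followed the rest of the series only in part. Of the 367 genes 4-fold apart in animal 52, 277 had its value within the range of the 17 libraries of the other 6 groups. Its correlation with those 17 was 0.927 to 0.955 (median 0.939). For the other 5 libraries it was 0.868 to 0.966 (median 0.951). For 490 genes the other 5 libraries all lay outside the range of the 17 libraries of the other 6 groups (271 below and 219 above), and in 454 of these, 92.7%, animal 52 lay within that range. When each of the other 5 animals was set aside in the same way, between 26 and 34 genes had the remaining 5 outside the range, and the animal set aside lay within it in 2 to 10 of them. Animal 52 was each time among the remaining 5, so no gene with animal 52 within the range could be counted. PC-C-H animal 51 is missing from the animals that the study lists and was kept out of the fits, and it lay outside the range on the same side as the 5 in 333 of the 490 genes. Thus in most of the 490 genes the PC-C-C group held animals from both sides of a division. The 3 PR-C-C animals were all on one side. Neither the labels nor the methods name a batch that follows this division, and the main counts and the genes called are therefore also given without animal 52. Animal 52 also had the deepest library of the 6, with 26006336 reads counted on genes, against 14061522 to 24580498 in the other 5. Its depth lay within the range of the 17 libraries of the other 6 groups, 22163509 to 31148123. Animals 41, 47, 54 and 55, with 14061522, 18630101, 19894341 and 20540311 reads, lay below that range, as did animal 51 with 21477925. Animal 58, with 24580498, lay within it. The share of depth in the separation and in the division was not tested.

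**Figure D1:**
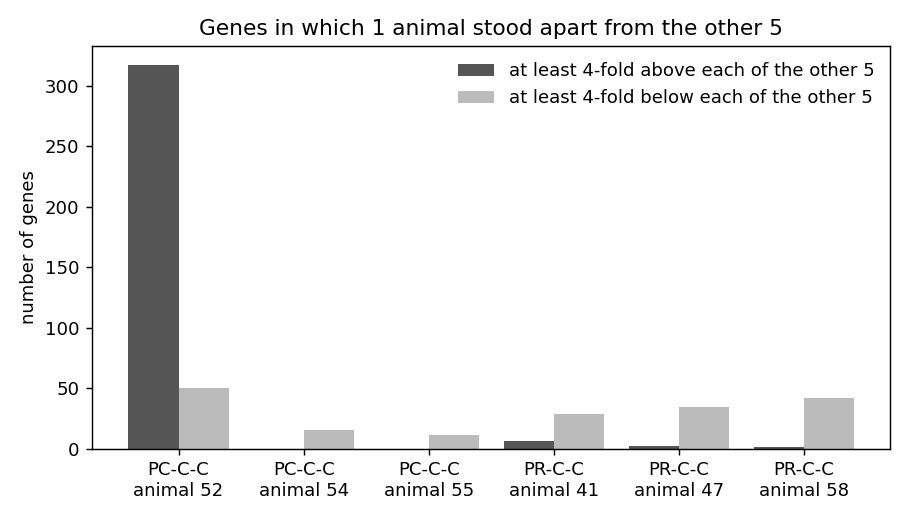
Bars give, for each of the 6 animals (x axis), the number of genes in which its normalized count was at least 4-fold above (dark) or below (light) that of every other animal, out of 13224 genes tested. Animal 52 had 317 and 50 such genes, and the other animals had at most 6 above and 42 below.

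Few genes passed the tests of the F0 ration. With limma, 0 of 13224 genes were differentially expressed between PC-C-C and PR-C-C at an adjusted p-value under 0.05 (0% of genes tested). The unadjusted p-value was under 0.05 for 615 (4.65%), of which 278 were higher and 337 lower in PR-C-C. edgeR's quasi-likelihood test also gave 0 genes, and 754 before adjustment. DESeq2, the method of the study, gave 21 of 18149 genes (0.116%), of which 17 (0.0937%) had lower and 4 (0.022%) had higher values in the PR arm. Without animal 52, limma gave 1 gene (0.00758%), edgeR gave 1 and DESeq2 gave 2 (0.011%). The median standard error of a log2 fold change was 0.24 with 6 libraries and 0.26 with 5. For 9321 genes (70.5%) the 95% confidence interval of the log2 fold change lay within 1 of 0 (limma), so that a change of more than 2-fold lay outside it, and for 5046 (38.2%) it lay within 0.58 of 0, or 1.5-fold. For 3 animals in each group the smallest p-value of a two-sided exact permutation test is 0.1. The normalized counts of 1434 genes (10.8%) did not overlap between the groups, 808 higher (6.11%) and 626 lower (4.73%) in PR-C-C, and without animal 52 this held for 2642 (20%).

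Of the 17 genes that DESeq2 found lower in PR-C-C, animal 52 was in 10 at least 4-fold above both other PC-C-C animals, or above the limit of 3 reads where these were lower. The groups did not overlap in 9 of the 17, with or without animal 52. Of all genes tested, 4.73% with animal 52 and 8.88% without it were lower without overlap. The calls came from the same animals, so the separation is no further support. DESeq2 called 1 of the 17 without animal 52. None of the 17 has a name in the sources used here. In 7 of the 17, all 5 other libraries lay below every one of the 17 libraries of the other groups. ENSCPOG00000039839 had 459 normalized counts in PC-C-C animal 52 and was listed at 0 in PC-C-C animals 54 and 55 and in all 3 PR-C-C animals. It had 96.8 to 808 normalized counts in the 17 other libraries. The value of animal 52 was ordinary for the series, and the other 5 animals, of both F0 rations, were the ones at 0. Given 3 reads as the limit that a count of 0 allows, the 5 libraries were each below 2.93 to 5.32 normalized counts. Its log2 fold change between the groups was 0 without animal 52. In 6 others of the 17 genes the highest value of all 24 libraries was that of PC-C-H animal 51, at 614 to 80636 normalized counts. ENSCPOG00000030652 was one of these, with 176 normalized counts in PC-C-C animal 52, 0 in the other 5 F2 control animals and 3082 in animal 51. It ranged from 0 to 135 in the 17 other libraries, and was listed at 0 in the 3 PR-C-H animals.

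**Figure D2:**
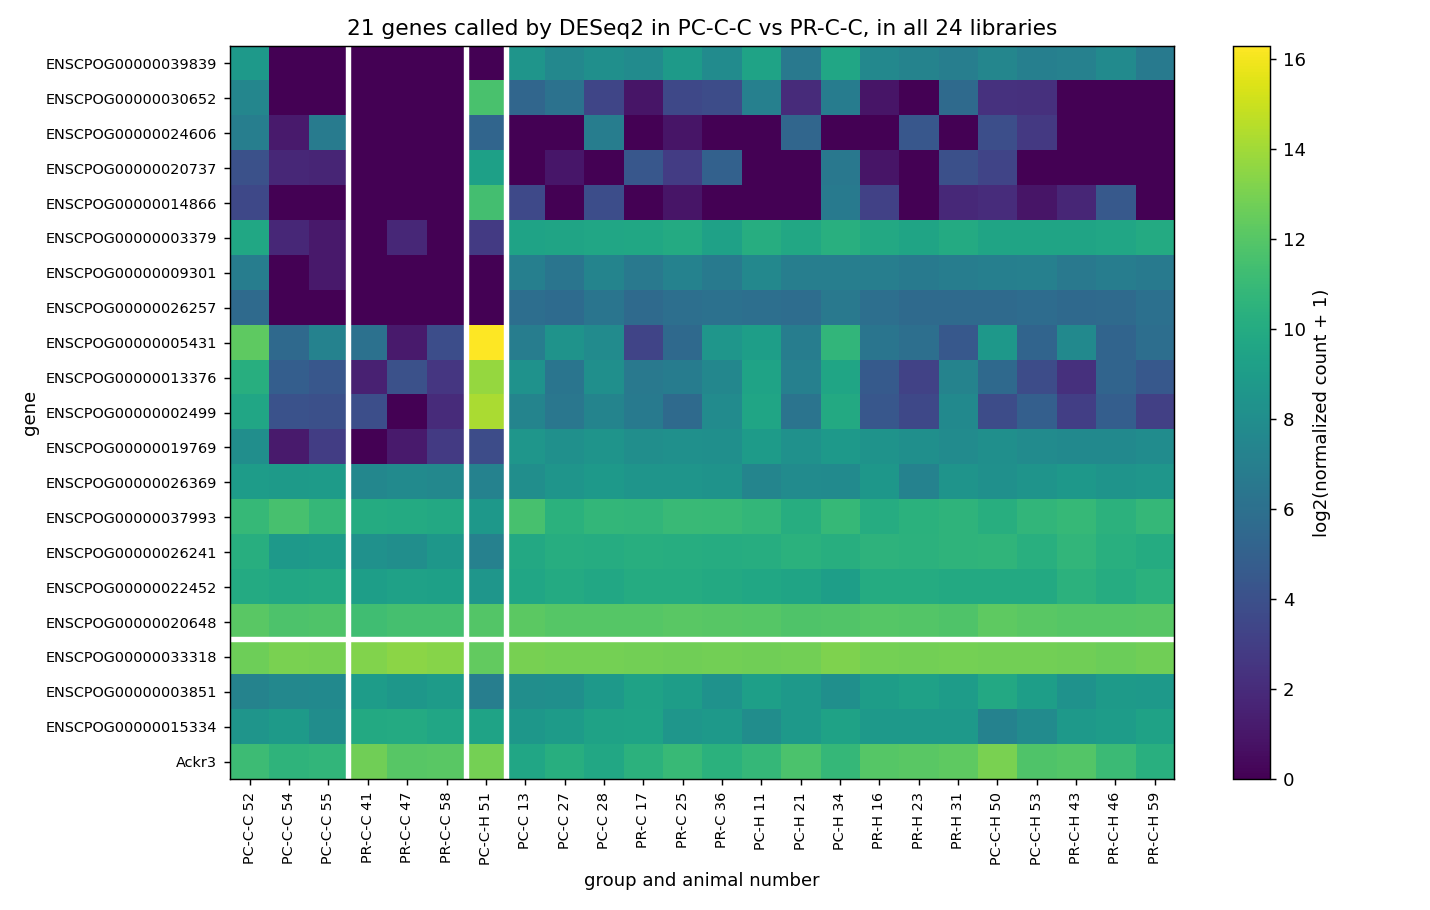
Each row is 1 of the 21 genes called by DESeq2, each column 1 of the 24 libraries, and color gives log2(normalized count + 1). White lines part the PC-C-C animals, the PR-C-C animals, PC-C-H animal 51 and the 17 other libraries, and the 17 genes lower in PR-C-C (top) from the 4 that were higher. In several of the upper rows PC-C-C animals 54 and 55 resemble the PR-C-C animals, and animal 52 resembles the libraries on the right.

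The remaining 4 of the 17 genes were all among the 9 without overlap. They are named here after their values were seen. ENSCPOG00000026369 had 503, 472 and 499.7 normalized counts in PC-C-C animals 52, 54 and 55, and 186, 222 and 197 in PR-C-C animals 41, 47 and 58. The PC-C-C values were also above the highest of the 17 other libraries, 450.4, while the PR-C-C values lay within their range. Its log2 fold change was -1.28 (standard error 0.27, adjusted p = 0.714 with limma and 0.00594 with DESeq2), and -1.27 without animal 52 (adjusted p = 0.202 with DESeq2). ENSCPOG00000037993 had 1946, 2989 and 1836 normalized counts in PC-C-C and 1029, 1017 and 923 in PR-C-C. Here the 3 PR-C-C animals were below all 17 other libraries, of which the lowest had 1089.6. Its log2 fold change was -1.15 with animal 52 (standard error 0.26, adjusted p = 0.714 with limma and 0.0141 with DESeq2) and -1.24 without it (adjusted p = 0.118 with DESeq2). ENSCPOG00000022452 had 990.2, 863 and 924 normalized counts in PC-C-C and 559, 632 and 619 in PR-C-C, a log2 fold change of -0.62 (adjusted p = 0.0321, DESeq2), and -0.57 without animal 52 (adjusted p = 0.783, DESeq2). ENSCPOG00000024606 was listed at 0 in the 3 PR-C-C animals and had 122, 1.23 and 108 normalized counts in PC-C-C, so that animal 54 was under the limit of 3 reads as well. In the 17 other libraries it ranged from 0 to 119 with a median of 0.

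All 4 genes that DESeq2 found higher in PR-C-C separated the groups, as 6.11% of all genes tested did in that direction. Separation of all 6 animals implies separation without animal 52, which 11.1% of all genes tested showed. The calls came from the same animals, so the separation is no further support. One of the 4 has a name. Ackr3 encodes an atypical chemokine receptor that binds and removes CXCL12 and is made by endothelial cells. It had 2355, 1556 and 1725 normalized counts in PC-C-C animals 52, 54 and 55, and 6886, 4292 and 4502 in PR-C-C animals 41, 47 and 58. Every PR-C-C animal was thus above every PC-C-C animal, and the highest, animal 41, was the shallowest of the 6 libraries. The means were 1879 ± 421 and 5226 ± 1441 (SD, n = 3 each). The log2 fold change was 1.46 with a standard error of 0.35 (adjusted p = 0.815 with limma and 0.0321 with DESeq2). Without animal 52 the log2 fold change was 1.64, and neither tool called it (adjusted p = 1 with limma and 0.118 with DESeq2). The exact permutation test gave p = 0.1 (two-sided), the smallest possible with 3 animals against 3. Ackr3 varied widely in the series, from 801 to 8483 normalized counts in the 17 other libraries, a range that holds all 6 values.

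Of the 3 other genes higher in PR-C-C, 2 had changes of like size. ENSCPOG00000015334 had 353, 476 and 251 normalized counts in PC-C-C and 956, 989 and 808 in PR-C-C. The 3 PR-C-C animals were above all 17 other libraries, in which the highest was 692. Its log2 fold change was 1.39 (standard error 0.32, adjusted p = 0.714 with limma and 0.0321 with DESeq2) and 1.40 without animal 52 (adjusted p = 0.533 with DESeq2). ENSCPOG00000003851 had 157, 189.96 and 215 normalized counts in PC-C-C and 511, 395 and 492 in PR-C-C. For this gene the PC-C-C animals were the ones below all 17 other libraries, of which the lowest had 269.8, while PC-C-H animal 51 was lower still at 122. Its log2 fold change was 1.31 (standard error 0.30, adjusted p = 0.714 with limma and 0.0271 with DESeq2), and 1.19 without animal 52 (adjusted p = 0.747 with DESeq2). The fourth, ENSCPOG00000033318, chosen after its values were seen, had 6585, 8133 and 8111 normalized counts in PC-C-C and 9560.3, 11345 and 10292 in PR-C-C, a log2 fold change of 0.45 (adjusted p = 0.0271, DESeq2). Without animal 52 it was 0.35 (adjusted p = 0.783, DESeq2).

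Leaving out animal 52 brought 1 gene past the threshold of limma. ENSCPOG00000009219 had 1362 and 1418 normalized counts in PC-C-C animals 54 and 55, the lowest 2 values of the 23 libraries used, and 2231, 2714 and 2743 in PR-C-C. Its log2 fold change without animal 52 was 0.88 (standard error 0.13, adjusted p = 0.0286 with limma). Animal 52 had 2449 normalized counts, within the PR-C-C range, and with it the log2 fold change was 0.60 (adjusted p = 0.982, limma). The call thus rested on which PC-C-C animals were used. The other gene that DESeq2 called without animal 52, ENSCPOG00000020737, had 2.45 and 2.24 normalized counts in animals 54 and 55 and 0 in PR-C-C, where 3 reads correspond to 2.93 to 5.32, so both groups were at the limit of detection. The smallest unadjusted p-value of limma with 6 libraries, 5.31e-05, was that of ENSCPOG00000034862. It had 162 normalized counts in animal 52, 6.13 and 12.3 in animals 54 and 55, and 0, 1.28 and 2.93 in PR-C-C, against 156 to 239.5 in the 17 other libraries (adjusted p = 0.702, limma). Both of these genes are given after their values were seen.

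**Figure D3:**
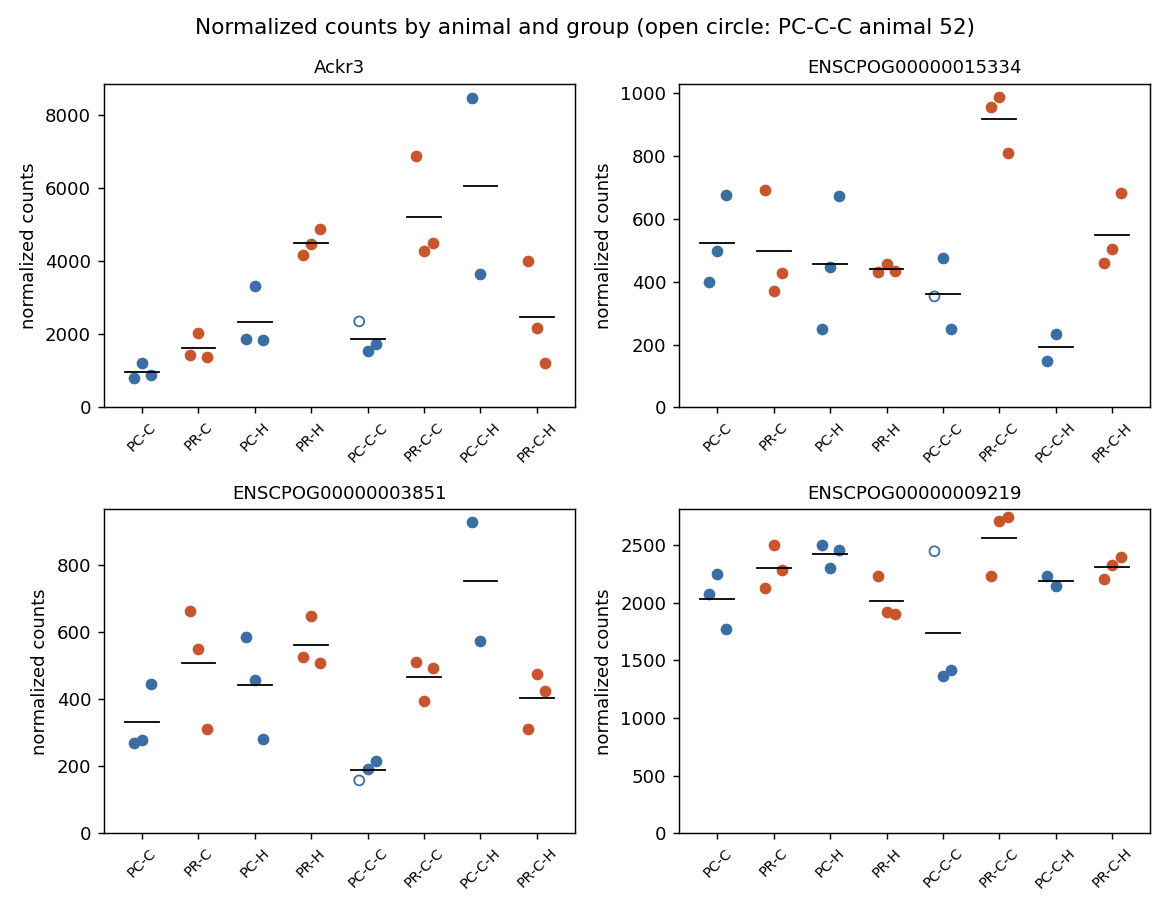
Normalized counts (y axis) of Ackr3 and 3 genes known by identifier in each animal of the 8 groups (x axis), PC arms in blue and PR arms in orange, with bars at the group means. The open circle is PC-C-C animal 52, and PC-C-H animal 51 is left out. In PR-C-C, Ackr3 lay between 4292 and 6886, above the 3 PC-C-C animals, and ENSCPOG00000009219 separated the groups only if animal 52 was set aside.

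The same contrast of F0 ration was made in animals that share none with this comparison. In F1 animals on control diet, Ackr3 had 801 to 1217 normalized counts in PC-C and 1374 to 2051 in PR-C, again without overlap (log2 fold change 0.74, standard error 0.35, adjusted p = 1 with limma). In F2 animals on high fat diet the order was the opposite, with 3641 and 8483 in the 2 PC-C-H animals used and 1225 to 4007 in PR-C-H, which overlap. The difference of the F0 ration effect between control and high fat diet in F2 was 2.80 on the log2 scale for Ackr3 (adjusted p = 0.152 with limma and 0.00073 with DESeq2). For ENSCPOG00000003851, lower in PR-C-H than in PC-C-H without overlap, it was 2.19 (adjusted p = 0.162 with limma and 0.003 with DESeq2). ENSCPOG00000015334 was higher in the PR arm on both diets in F2, with 148 and 235 normalized counts in PC-C-H and 459.9 to 683 in PR-C-H, but not in F1 (369 to 692 in PR-C and 400.02 to 676 in PC-C). Over all genes, the difference between diets gave 23 genes with DESeq2 and 0 with limma and edgeR, for which 349 and 387 had unadjusted p-values under 0.05. The difference between F2 and F1 on control diet gave 4 genes with DESeq2 and 0 with limma and edgeR, for which 493 and 505 had unadjusted p-values under 0.05. Of those 4, 3 were among the 17 genes described above as lower in PR-C-C.

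Among named genes, 140 had enough reads for limma, all of them taken from the genes that the study listed for the F1 comparison of control and high fat diet, PC-C vs PC-H. None was differentially expressed between PC-C-C and PR-C-C with limma. At an unadjusted p-value under 0.05 there were 19 (13.6%, where 4.65% of all genes had one), 14 higher and 5 lower in PR-C-C. After Ackr3, those with the smallest unadjusted p-values among named genes without overlap were Ywhah, Cacybp, Hspa14, Dynll1, Rbm4, Phf11, Smco4, Xbp1 and Aimp2, all with higher values in PR-C-C. Ywhah, a 14-3-3 adaptor that binds phosphorylated proteins, had 8493, 8096 and 7541 normalized counts in PC-C-C and 11043, 9803 and 11406 in PR-C-C. Its log2 fold change was 0.42 (standard error 0.13, adjusted p = 0.982, limma). Dynll1, a light chain of the dynein motor, had 10179, 9587 and 8149 in PC-C-C and 13457, 12598 and 13761 in PR-C-C, a log2 fold change of 0.52. Without animal 52 these were 0.46 and 0.59. The other 7 log2 fold changes ran from 0.29 for Aimp2, a scaffold of the aminoacyl-tRNA synthetase complex, to 0.48 for Cacybp, a co-chaperone that also takes part in ubiquitination. With 6 libraries none of these 9 had a change of 1.5-fold, and each adjusted p-value was 0.982 with limma. Without animal 52 Dynll1 reached 1.5-fold.

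In the other direction, the named genes without overlap were Tcp11l2, Tshz1, Polg, Zfyve26, Ints1, Colec12, Ifit5, Olfml2b and Fcmr, of which the first 3 had an unadjusted p-value under 0.05. Tshz1, a zinc finger homeobox transcription factor, had 2075, 2128 and 2273 normalized counts in PC-C-C and 1898, 1680.2 and 1429 in PR-C-C, a log2 fold change of -0.38 (standard error 0.15), and -0.41 without animal 52. Polg, the polymerase that copies mitochondrial DNA, had 1098, 1089.5 and 1136 in PC-C-C, and 701, 713 and 993 in PR-C-C, where animal 58 lay apart from the other 2. Colec12, a scavenger receptor of the vessel lining, had 475 normalized counts in animal 52 and 175 and 206 in animals 54 and 55, against 144, 158 and 145 in PR-C-C. Its log2 fold change was -0.79 with animal 52 and -0.35 without it. Fcmr, a receptor for IgM on lymphocytes, had few reads, at 28.2 to 42.6 normalized counts in PC-C-C and 10.6 to 22.5 in PR-C-C. The 9 adjusted p-values were each 0.982 with limma.

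Gene lists with at least 3 named members tested were 11. Their members are known by name only because the study listed them for PC-C vs PC-H, so each list is a part of its pathway. Over all genes tested, 49.2% had a higher mean log2 value in PR-C-C, and the median log2 fold change was -0.0054. All 6 cytosolic chaperones, which fold new and damaged proteins, had higher mean log2 values in PR-C-C. Their median log2 fold change was 0.32, and 0 of 6 were differentially expressed (limma). High fat diet raised the mean log2 values of all 6 in F1 animals of the PC arm, but they are named through that same comparison. Of the 94 named genes raised by high fat diet there, 70.2% had higher values in PR-C-C (75.5% without animal 52), with a median of 0.14. Whether the chaperones differ from the rest of those 94 was not tested. Cacybp had 3505, 3593 and 3224 normalized counts in PC-C-C and 5215, 4377 and 4786 in PR-C-C. Hspa14, an Hsp70 relative that acts at the ribosome, had 836, 854 and 844 in PC-C-C and 1112, 1212 and 1025 in PR-C-C. These 2 separated the groups, whereas Hspa8, Dnajb1, Cct2 and Cct3 overlapped. Hspa8, the constitutive Hsp70, whose reads a near-identical copy could share, had 25604, 17008 and 19858 normalized counts in PC-C-C and 36547, 20795 and 31268 in PR-C-C. Animal 52 had the highest Hspa8, Dnajb1 and Cct2 of the PC-C-C group, and without it the median of the list was 0.38. The unadjusted p-value was under 0.05 for 2 of 6 with animal 52 and for 5 of 6 without it, where 3.14% of all genes tested had one.

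The lists for protein folding in other compartments had medians of the same sign. Their 8 named members also belong to the 94 genes raised by high fat diet in F1, so these lists are not separate from that set. The 3 genes of mitochondrial protein folding and import, Hspe1, Chchd4 and Timm13, had log2 fold changes of 0.37, 0.27 and 0.26. Hspe1, the co-chaperonin of the mitochondrial matrix, had 1719.9, 1669 and 1268 normalized counts in PC-C-C and 1832, 2165 and 1975 in PR-C-C, without overlap. Of the 5 genes of endoplasmic reticulum stress, 4 had higher mean log2 values in PR-C-C. Xbp1, a transcription factor of the unfolded protein response, had 5053, 4902 and 4867 normalized counts in PC-C-C and 6135, 5963 and 6528 in PR-C-C, a log2 fold change of 0.33 (standard error 0.14). Manf, a secreted protein of the same response, had 2894, 1857 and 1890.03 in PC-C-C and 3067, 2671 and 2995 in PR-C-C. Its groups overlapped through animal 52 alone, and its log2 fold change was 0.42 with that animal and 0.63 without it. Tusc3, a subunit of the oligosaccharyltransferase, was the exception at -0.13. None of these 8 genes was differentially expressed with limma, and the smallest adjusted p-value was 0.982.

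The 4 named genes of the list for extracellular matrix and vessel wall had lower mean log2 values in PR-C-C. The log2 fold changes were -0.18 for Ltbp1, -0.35 for Npnt, -0.62 for Olfml2b and -0.79 for the scavenger receptor Colec12. The median of the list was -0.49, and -0.31 without animal 52. In the interferon response list 4 of 5 were lower in mean log2 value, with and without animal 52. Ifi27, an interferon-induced protein, had 6830.2, 3079 and 1955 normalized counts in PC-C-C and 2004, 1909.8 and 2605 in PR-C-C. Its log2 fold change moved from -0.68 to -0.19 without animal 52, and that of Ifi27l2 from -0.65 to -0.07. Those of Ifit5 and Zc3hav1 were -0.41 and -0.21 with animal 52 and -0.33 and -0.34 without it. Phf11 was the member with a higher value in PR-C-C, at 0.30. Tuba4a, an alpha tubulin in the cytoskeleton list, likewise had 446 normalized counts in animal 52 and 35.5 to 71.7 in the other 5, and its log2 fold change moved from -1.09 to -0.06. The other 8 genes of that list had log2 fold changes from 0.02 to 0.52.

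Genes of cholesterol handling that respond to the sterol sensor LXR did not separate the groups. Abcg1, which exports cholesterol, had 157, 360.3 and 223 normalized counts in PC-C-C and 199, 278 and 203 in PR-C-C, a log2 fold change of -0.06 with a 95% confidence interval from -1.23 to 1.11. Mylip, which marks the LDL receptor for degradation, had a log2 fold change of -0.02 with an interval from -0.47 to 0.44. Srebf1 and Scd1, which drive and carry out fatty acid synthesis, were at -0.23 and -0.30 and changed sign without animal 52, to 0.16 and 0.05. Except for Mylip, these intervals with 6 libraries hold a 2-fold change in at least 1 direction. The lists for oxidative phosphorylation, splicing, chromatin and transcription factors had medians between -0.19 and 0.15, and no member was differentially expressed with limma.

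**Figure D4:**
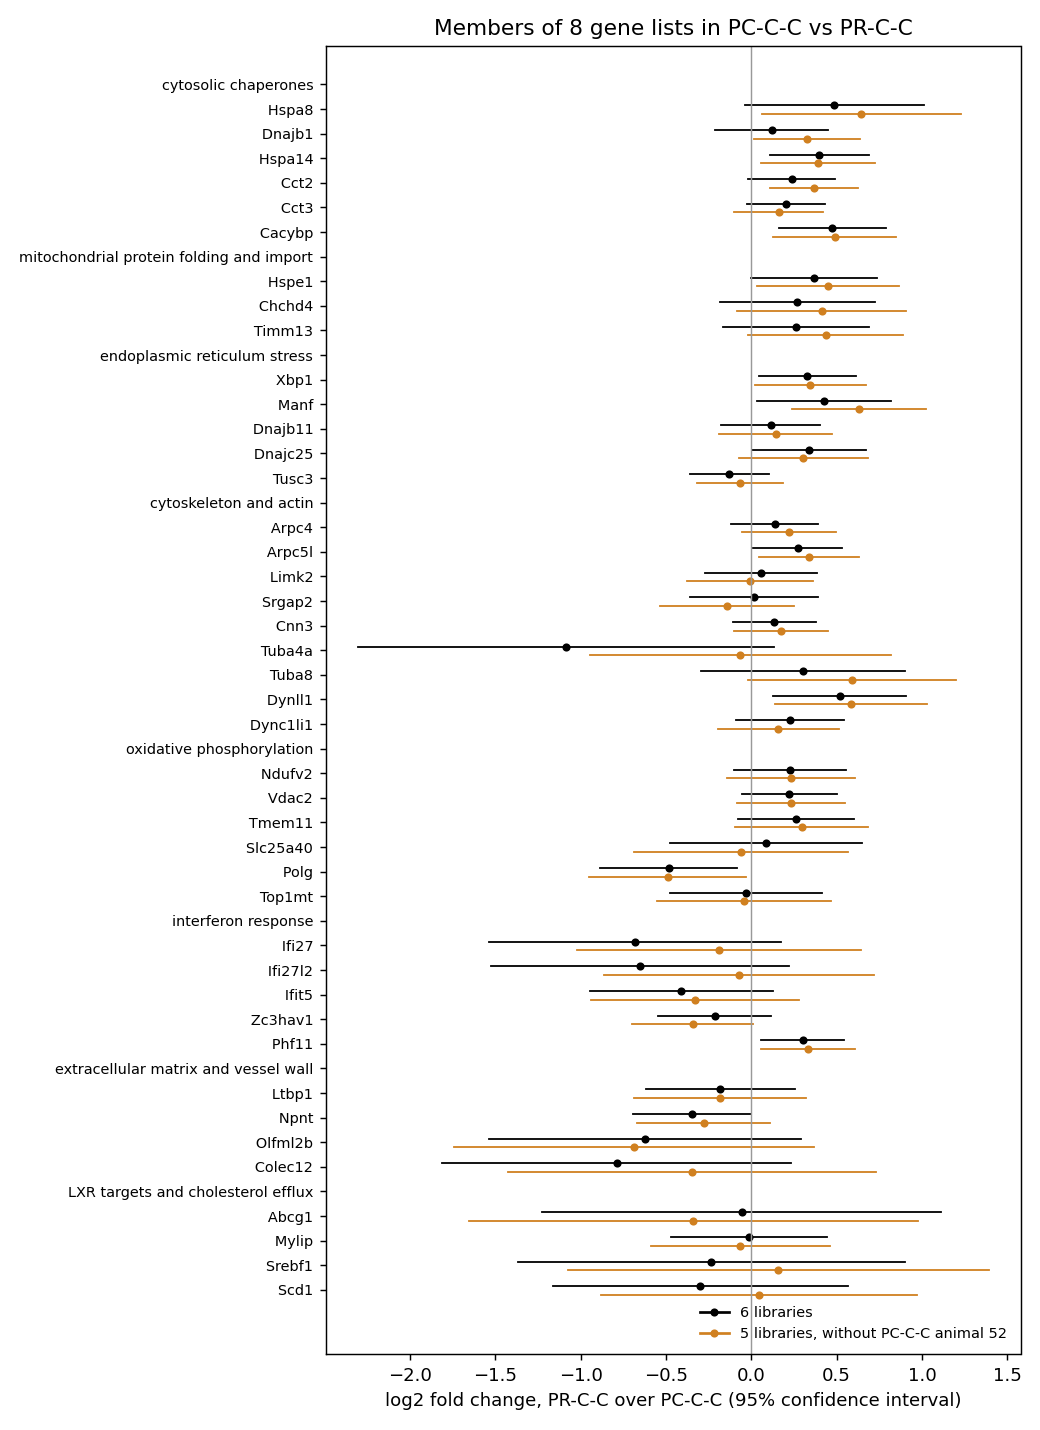
Log2 fold changes of PR-C-C over PC-C-C (x axis) with 95% confidence intervals for the named members of 8 gene lists, with all 6 libraries (black) and without PC-C-C animal 52 (orange). The 6 cytosolic chaperones lie to the right of 0 in both, while Tuba4a and Ifi27 move toward 0 once animal 52 is left out.

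The named genes also allowed the direction of the F0 ration effect to be set beside that of the high fat diet in F1, since PC-C and PC-H share no animal with this comparison. The 140 genes were parted by the sign of their own log2 fold change in PC-C vs PC-H. Of the 94 higher in PC-H, 66 (70.2%) had higher mean log2 values in PR-C-C, where 49.2% of all genes tested did, with a median log2 fold change of 0.14. Of the 46 lower in PC-H, 33 (71.7%) had lower mean log2 values in PR-C-C, where 50.8% of all genes tested did, with a median of -0.08. Without animal 52 the counts were 71 of 94 and 35 of 46, where 50.5% of all genes were higher and 49.3% lower. The groups of animals were less distinct than these counts. Over the 94 genes, the median log2 value relative to the mean of the 6 animals was 0.06, -0.05 and -0.21 in PC-C-C animals 52, 54 and 55, and 0.05, 0.07 and 0.09 in PR-C-C animals 41, 47 and 58. Animal 52 lay among the PR-C-C animals, and animal 55 was the farthest from them. Over the 46 genes the values were 0.02, 0.03 and 0.12 in PC-C-C and -0.04, -0.02 and -0.06 in PR-C-C, without overlap. In F2 animals on high fat diet the same sets showed no such lean, with 48 of 94 higher and 21 of 46 lower in PR-C-H than in PC-C-H. For F1 on control diet the counts are not given, because PC-C also served to choose the sets. There all 6 cytosolic chaperones had higher mean log2 values in PR-C than in PC-C. Their log2 fold changes ran from 0.11 for Dnajb1 to 0.61 for Hspa8, so the direction was not particular to F2. No test was run on these counts, because genes of a list vary together.

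**Figure D5:**
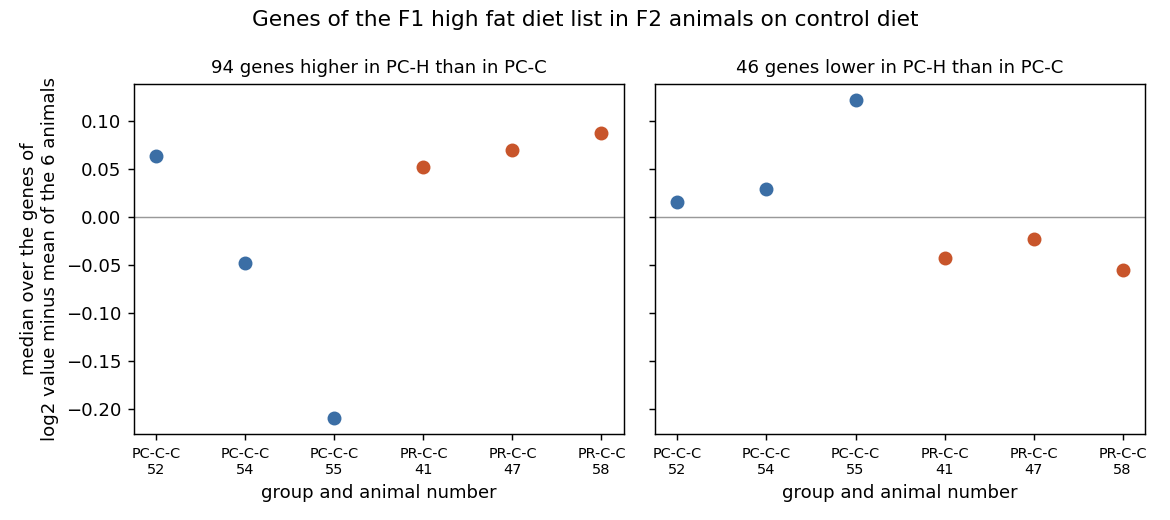
For each of the 6 animals (x axis), the median over the 94 genes higher (left) or the 46 genes lower (right) in PC-H than in PC-C of the log2 value minus the mean of the 6 animals (y axis), PC-C-C in blue and PR-C-C in orange. On the left PC-C-C animal 52 lies among the PR-C-C animals and animal 55 is lowest, at -0.21. On the right the groups do not overlap.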

How the data were processed

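Per the labels, RNA of carotid endothelium from 24 guinea pigs was sequenced, 1 library per animal. The authors trimmed reads with Trimmomatic, aligned them with STAR and used DESeq2; genome build, annotation and read counter are not given in the sources used here. The deposited signal values are reads divided by a DESeq2 size factor, as checked on the values: 100% were whole reads within 0.001 times the step of their library. Reads per library ranged from 14061522 to 31148123 in the series. Limits set by 3 reads cover counting error only, as PCR copies cannot be told from molecules here.

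A gene was tested when its mean reached 10 normalized counts, with limma 3.58.1 on log2(value + 1) in a model of 8 groups and 23 libraries, or 22 without animal 52, with Benjamini-Hochberg adjustment at 0.05. DESeq2 1.42.0 and edgeR 4.0.16 used the recovered reads (R 4.3.3), and scripts were tested on simulated data. PC-C-H animal 51 was left out, being absent from the study's animal list, and a PC-C-H sample did not meet the study's standard of quality. Named genes were those called in any of the 4 models (limma or DESeq2, with or without animal 52) whose mean reached 20 in the 6 libraries, up to 12 in each direction and at most 2 unnamed genes in each direction per model. They were filled up to 10 in each direction by the smallest unadjusted p-value among named genes without overlap. Members and lists were chosen with earlier results of these data known. Of the study's identifiers, 0 matched the reference table, so positions and sequences are not given. Alternatives were other tools, scaling, pseudocounts, filters, sets of libraries, sex as a term, array weights and leaving out each animal.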

Additional observations from a re-analysis of the deposited data

Results flagged for a closer look

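The F0 ration effect on Ackr3 differed between diets in F2 by a log2 value of 2.77 (standard error 0.53, adjusted p = 0.00073, DESeq2), with higher values in PR-C-C than in PC-C-C in 3 of 3 animals, and a lower mean in PR-C-H than in the 2 PC-C-H animals. ENSCPOG00000003851 differed in the same way by a log2 value of 2.21 (standard error 0.46, adjusted p = 0.003, DESeq2). With limma the adjusted p-values were 0.152 and 0.162. For ENSCPOG00000039839 DESeq2 also gave a difference between diets, but all 3 PR-C-C animals were at 0 and so were 2 of 3 PC-C-C animals, so no size is given.

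PC-C-H animal 51 was not in the main fits and entered only alternatives. In it, 12 genes were more than 2-fold above the highest of the 12 control diet libraries. They come from the genes named by rule, given after their values were seen or tested as list members. Among genes known by identifier, it had 3082 normalized counts of ENSCPOG00000030652 and 614 of ENSCPOG00000020737. Among named genes, its normalized counts were 14136 for Tuba4a, 2419.7 for Tuba8, 8229.6 for Colec12, 7336 for Ndufv2, 4787 for Snai2, 4333 for Scd1, 3856 for Meox2, 3639 for Aimp2, 1711 for Mylip and 845 for Srebf1. Animal 51 was on high fat diet. Its Mylip and Srebf1 lay within the ranges of the other high fat diet libraries, 1336 to 1852 and 427 to 1202. Animal 51 is missing from the study's list, and a PC-C-H sample did not meet the study's standard of quality. The cause of the values in animal 51 was not tested.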

How the results depend on the processing

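With all 6 libraries limma gave 0 genes, and 2 with array weights. Leaving out 1 animal gave 0 to 1 (1 without animal 52, 1 without animal 54). Without animal 52 the count of 1 became 0 with only the 2 groups in the model and 0 with animal 51 added, and was 0 to 2 when a further animal was left out; with TMM, edgeR, either other pseudocount, all genes, sex or array weights it stayed at 1. With DESeq2 the 21 genes became 38 with sex as a term and 36 with animal 51, and ranged from 2 to 46 when 1 animal was left out: 2 without animal 52, 46 without 54, 45 without 55 and 6 without 58. With only the 2 groups in the model it gave 25 genes, 15 of them higher in PR-C-C, where the 8-group model gave 4 of 21. Without animal 52 DESeq2's 2 genes became 1 with the filter on a mean of 10, 37 with only the 2 groups, 10 with sex and 14 with animal 51, and 1 to 4 when a further animal was left out. The difference between F2 and F1 gave 4 genes with DESeq2 and that between diets 23, where limma gave 0. The causes were not tested. Of 400 refitted log2 fold changes of 25 named genes, none changed sign, and those of ENSCPOG00000039839 and ENSCPOG00000030652 became 0 without animal 52. Most of the 25 were chosen for groups without overlap, so leaving out an animal could not reverse their sign. Among list members not chosen that way, Srebf1 and Scd1 changed sign without animal 52. Models with 1 animal in PC-C-C assume that it varies like the other groups. The labels give no dam or litter, so no model grouped or paired animals by them. Animals that may share a dam, within or across diets, were treated as independent. The effect of this on the p-values was not tested. With 3 animals in each group the median standard error of a log2 fold change was 0.24, and the share of depth in it was not tested.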
